A study of Mus musculus with 6 samples.

Results

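Of 21883 mouse protein-coding genes, 10 had an ATAC-seq peak at a gene end in all 3 libraries of brown pre-adipocytes at day 1 of differentiation and in 0 of 3 libraries at day 0. The 7 genes described here, Ankrd23, Bcl2l10, Hacd4, Letmd1, Mrap, Nfe2 and Osbpl11, were chosen from those peak calls. Gene end means the 1 kb on either side of the start or end of the annotated gene span, and any part of a peak could fall in it. The presence of these peaks at day 1 and their absence at day 0 is therefore the rule and not a finding. The label holds for the outer ends of the spans, and at Letmd1 and Osbpl11 it does not hold for the transcript start that RefSeq lists inside the span, which carried peaks on both days.

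ATAC-seq reads open chromatin through a transposase that cuts accessible DNA. The day 1 group is labelled as brown adipocyte differentiation for 1 day, and the day 0 group is labelled WT, which the labels give as its treatment. Each group has 3 libraries of brown pre-adipocytes, which give rise to brown fat cells, and BAT is given as the cell line. The deletion of RUNX1 or RUNX2 in the series title is named in neither group's labels. The labels give no differentiation agents, no animal age and no statement that replicates came from separate cultures, so the spread between libraries may be technical. Fragments numbered 4919755, 5603667 and 7302457 in day 1 libraries and 11011889, 8127635 and 9160156 in day 0 libraries, and the lists used held 12556 to 23274 peaks at day 1 and 39211 to 55511 at day 0. Of 10 pre-adipocyte markers, day 1 replicates 1, 2 and 3 had a gene-end peak at 2, 3 and 1, and day 0 replicates at 7, 4 and 4. Pdgfra, Dlk1 and Thy1 had none in any list. The share of all coding genes with a gene-end peak was lower at day 1 as well. It was 39.7%, 42.9% and 32.5% in day 1 replicates 1, 2 and 3, and 51.6%, 47.8% and 45.5% in day 0 replicates.

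Brown fat cells burn fatty acids in mitochondria to make heat, and their precursors take on lipid storage, mitochondria and hormone receptors as they differentiate. A peak at a gene end marks DNA open to the transposase in enough fragments to pass the caller's threshold. It does not measure transcription. Among the 7 genes, Mrap encodes a membrane protein that brings the receptor for adrenocorticotropic hormone to the cell surface, and in mice it is expressed in fat cells as well as in the adrenal gland. Hacd4 encodes an enzyme of very long chain fatty acid elongation, Osbpl11 a lipid-binding protein of the oxysterol-binding protein family, and Letmd1 a protein of the mitochondrial inner membrane that mouse brown fat needs for heat production. Bcl2l10 belongs to the BCL-2 family of cell death regulators. Ankrd23 encodes a muscle ankyrin repeat protein, and Nfe2 the large subunit of the blood cell transcription factor NF-E2, which pairs with a small MAF protein.

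The same pattern was rare among coding genes. The 10 genes were 0.0457% of those examined, while 531 genes, 2.43%, had the mirror pattern with a gene-end peak in all day 0 and no day 1 lists. Every member has the pattern by choice, and nothing about the members is read from the first share. Next to the rule, 11 genes had gene-end peaks in all 3 day 1 lists and 1 day 0 list, and 31 genes had them in 2 day 1 lists and no day 0 list. Without day 1 replicate 3, the shortest list, 33 genes had the pattern. When the 12556 peaks of lowest q were kept in each library, as many as the shortest list held, 404 genes had it, and Ankrd23, Letmd1 and Mrap left it because their peak was then in 2 of 3 day 1 lists.

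**Figure D1:**
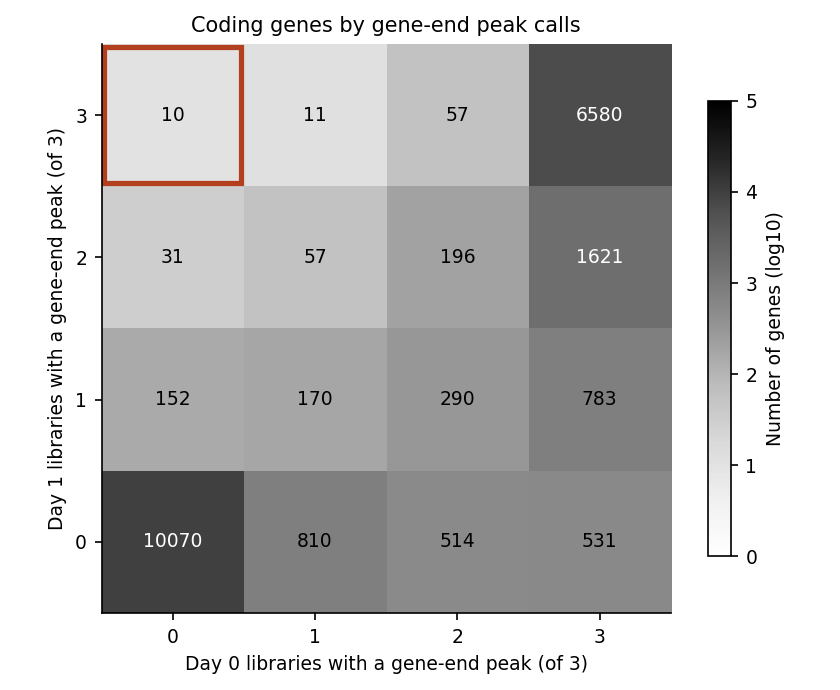
The number of coding genes in each combination of day 1 libraries (vertical axis, of 3) and day 0 libraries (horizontal axis, of 3) with a gene-end peak, shaded by log10 of the number. The outlined cell at the upper left holds the 10 genes with peaks in all day 1 and no day 0 libraries, among them the 7 described, against 531 in the mirror cell at the lower right.

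Summit height is given as the number of fragments over the peak's summit per 1000000 fragments of the library. Fold enrichment is the authors' ratio of fragments at the summit to the local background of the same library, with 1 fragment added to each. The added fragment lowers the ratio most where the background is low, so fold enrichments are not matched for depth between the days. Over the 7 genes the lists held 22 gene-end peaks, 123 to 569 bp wide, with 6 to 27 fragments at the summit and fold enrichments from 4.31 to 14.1. Median fold enrichment of all gene-end peaks was 8.16, 8.51 and 7.38 in day 1 replicates 1, 2 and 3, so the members lay on both sides of the usual gene-end peak. In all 7 genes day 1 replicate 3 had the lowest summit height, and its median over all gene-end peaks was also lower, at 1.92 fragments per 1000000 against 3.25 and 3.21 in the other day 1 libraries. At each gene 1 peak per day 1 library lay in a shared place, where the shorter peak of any pair was covered to at least 85.7% by the longer, and the remaining peak of the 22 lay at the other end of Nfe2 in day 1 replicate 2.

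**Figure D2:**
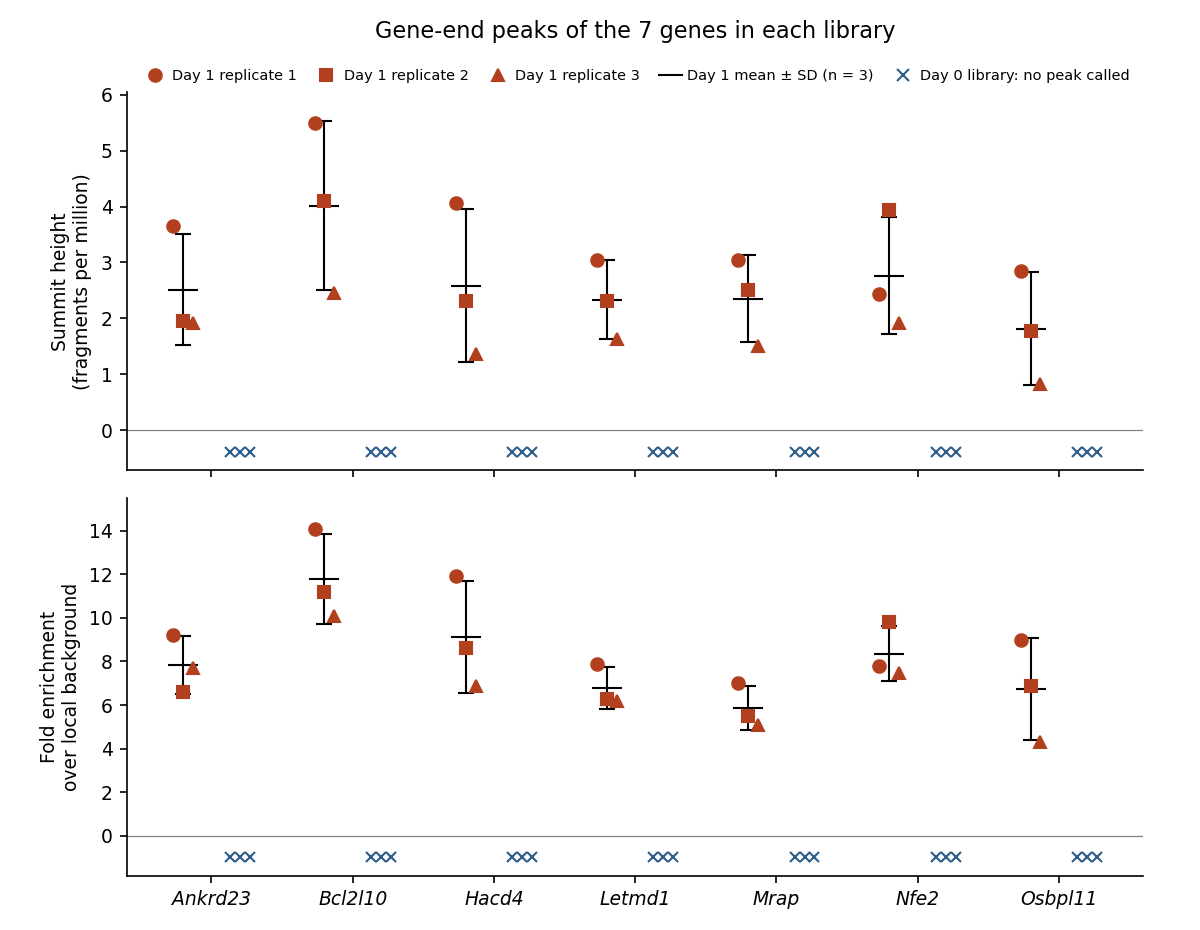
Summit height in fragments per 1000000 (upper panel) and fold enrichment over the local background (lower panel) of the strongest gene-end peak of each gene, with 1 symbol per day 1 library at the left of each gene and the mean ± SD of the 3. Crosses below 0 at the right stand for the 3 day 0 libraries, in which no peak was called. Bcl2l10 was highest by mean on both scales, Osbpl11 lowest by height and Mrap lowest by fold.

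Absence from the day 0 lists does not give a level. The weakest peak called in each day 0 list had 5 fragments at its summit. The members' mean day 1 height, carried over to the depth of the shallowest day 0 library, would come to between 14.8 fragments at Osbpl11 and 32.7 at Bcl2l10. A call also depends on the local background and on how much of a library lies in peaks, and heights per 1000000 fragments are not matched for that between the days.

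Mrap, the hormone receptor accessory gene, spans chromosome 16 from 90738207 to 90749785 in mm10. Its day 1 peak lay across the lower end of the span, shared by all 3 libraries from 90738123 to 90738245. Summit heights were 3.05, 2.5 and 1.51 fragments per 1000000 in day 1 replicates 1, 2 and 3, and no day 0 library had a peak there. Fold enrichment averaged 5.86 ± 1.01 at day 1 (SD, n = 3), the lowest mean of the 7 genes, and −log10 q ran from 4.34 to 8.68.

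A second region near Mrap, on chromosome 16 from 90736834 to 90737188, missed the gene-end distance by little. It was called in all 6 libraries, 1019 to 1029 bp from the gene at day 1 and 1102 to 1126 bp from it at day 0. Its fold enrichment was 5.30, 5.61 and 6.46 in day 1 libraries and 4.87, 6.54 and 5.19 in day 0 libraries, and the days overlapped. With gene ends widened to 2 kb, Mrap therefore had gene-end peaks in 3 day 1 and 3 day 0 lists. A further region, 2.17 kb from Mrap on the same side and from 90735505 to 90736039, was called in day 0 libraries only, with fold enrichments of 8.91, 10.1 and 8.78 and no day 1 peak. The open stretch beside the lower end of Mrap thus held 3 regions that differed in their days.

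Hacd4, the fatty acid elongation gene, spans chromosome 4 from 88407687 to 88438936 and is read from the minus strand in RefSeq. Its day 1 peak lay outside the span beyond the 3′ end, 359 to 395 bp from it, and was shared from 88406920 to 88407292. That stretch lies inside the span of Focad, a gene whose span overlaps that of Hacd4 by 3325 bp. Summit heights were 4.07, 2.32 and 1.37 fragments per 1000000 in day 1 replicates 1, 2 and 3, a wide spread, and day 0 libraries had no peak. Fold enrichment was 9.12 ± 2.57 at day 1 (SD, n = 3).

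No peak lay at the 5′ end of Hacd4 on either day. Its RefSeq promoter window, the 250 bp before and 50 bp after the transcript start, overlapped no peak in any of the 6 lists. A region 2.00 kb inside the span from that end, from 88436663 to 88436933, was called in 0 day 1 libraries and in day 0 replicates 1 and 3, with fold enrichments of 10.8 and 5.72. Hacd4 was the nearest coding gene of 8 distal regions, those more than 1 kb and at most 100 kb from its ends, and none of the 8 had a day 1 peak, as was the case for 65.6% of the distal regions of all coding genes. Of the 8, 4 were called in all 3 day 0 libraries, a pattern of 19.6% of all distal regions, the strongest from 88334524 to 88334925 inside Focad with a mean fold enrichment of 10.4 ± 2.79 at day 0 (SD, n = 3).

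Osbpl11, the oxysterol-binding protein relative, spans chromosome 16 from 33169763 to 33243312 on the plus strand. Its day 1 peak lay across the outer 5′ end, shared from 33169634 to 33169759. Heights were 2.85, 1.78 and 0.822 fragments per 1000000 in day 1 replicates 1, 2 and 3, with no day 0 peak nearer than 3269 bp. In day 1 replicate 3 it stood on 6 fragments, with a −log10 q of 2.35 and rank 11858 of 12556 peaks, so at a −log10 q of at least 5 Osbpl11 had the peak in 2 of 3 day 1 lists. Mrap did too.

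The transcript start that RefSeq lists for Osbpl11 lies 15.3 kb inside the span, and its promoter window was open on both days. Fold enrichments there were 11.1, 11.6 and 8.67 in day 1 libraries and 14.4, 12.5 and 9.45 in day 0 libraries, and the days overlapped. Heights were 4.27, 4.82 and 2.19 fragments per 1000000 in day 1 libraries, above the outer peak of the same library each time, and 3.54, 4.18 and 2.18 in day 0 libraries. Inside Osbpl11 a further region from 33191737 to 33192086, 22.0 kb from its lower end, was called in all 3 day 1 libraries with fold enrichments of 8.50, 8.80 and 5.98, and in day 0 replicate 1 with 5.06.

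Letmd1, the gene of the mitochondrial inner membrane protein, spans chromosome 15 from 100462421 to 100479252 on the plus strand. Its day 1 peak lay at the 3′ end, shared from 100478946 to 100479190. The next gene, Csrnp2, begins 318 bp beyond that end, and the peaks lay 316 to 380 bp from Csrnp2, so they count as gene-end peaks of both genes. Heights were 3.05, 2.32 and 1.64 fragments per 1000000 in day 1 replicates 1, 2 and 3, with no day 0 peak, and fold enrichment was 6.78 ± 0.963 at day 1 (SD, n = 3). A second region, inside Csrnp2 from 100485616 to 100485875 and 6.36 kb from Letmd1, was also called in 3 day 1 and 0 day 0 libraries, with fold enrichments of 11.2, 6.80 and 7.08 at day 1.

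The promoter window of Letmd1, 6.59 kb inside the span, had a peak in 2 day 1 and 3 day 0 libraries. Its fold enrichment was 6.82 and 9.07 in day 1 replicates 1 and 2, with no call in day 1 replicate 3, and 7.30, 5.83 and 5.48 in day 0 libraries. The values of the days overlapped. At the other end of the span, a region inside the gene from 100463764 to 100463978 was called in 0 day 1 and all 3 day 0 libraries, 1343 to 1378 bp from the lower end. Widening gene ends to 2 kb took in this region, and Letmd1 then had gene-end peaks in 3 lists of each day.

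Promoter windows were listed for 4 of the 7 genes, with 2 windows for Ankrd23. None of these 5 windows had a peak in all day 1 and no day 0 lists, a pattern that 0.0213% of 32851 windows showed. The windows of Letmd1 and Osbpl11 are printed because they carried peaks on both days, and those of Hacd4 and Ankrd23 (the outer window) because no list had a peak on them. Sequences are from RefSeq on GRCm38.p6, 5′ to 3′ along the gene's strand, and capitals mark the GC box (GGGCGG) and the CCAAT box (CCAAT) on either strand.
Letmd1, plus strand, chr15:100468761-100469060: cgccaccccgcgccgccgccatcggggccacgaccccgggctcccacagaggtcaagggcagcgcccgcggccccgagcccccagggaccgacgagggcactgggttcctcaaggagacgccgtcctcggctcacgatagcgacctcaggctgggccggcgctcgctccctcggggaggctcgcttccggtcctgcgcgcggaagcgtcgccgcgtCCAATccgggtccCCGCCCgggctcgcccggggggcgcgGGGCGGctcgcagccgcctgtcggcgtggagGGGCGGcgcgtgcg
Osbpl11, plus strand, chr16:33184821-33185120: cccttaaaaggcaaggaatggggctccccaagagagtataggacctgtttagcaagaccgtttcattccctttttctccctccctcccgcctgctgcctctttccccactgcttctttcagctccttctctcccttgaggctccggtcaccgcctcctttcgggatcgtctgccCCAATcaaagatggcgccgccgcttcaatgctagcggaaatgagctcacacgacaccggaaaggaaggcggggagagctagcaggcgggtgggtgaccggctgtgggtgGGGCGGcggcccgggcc
Hacd4, minus strand, chr4:88438866-88439165: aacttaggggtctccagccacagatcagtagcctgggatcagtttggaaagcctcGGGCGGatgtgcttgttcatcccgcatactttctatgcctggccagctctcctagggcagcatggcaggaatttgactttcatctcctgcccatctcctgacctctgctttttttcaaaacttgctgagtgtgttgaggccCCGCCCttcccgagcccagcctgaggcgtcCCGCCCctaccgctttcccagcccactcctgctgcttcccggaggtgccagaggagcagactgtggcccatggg
Ankrd23, minus strand, chr1:36536507-36536806: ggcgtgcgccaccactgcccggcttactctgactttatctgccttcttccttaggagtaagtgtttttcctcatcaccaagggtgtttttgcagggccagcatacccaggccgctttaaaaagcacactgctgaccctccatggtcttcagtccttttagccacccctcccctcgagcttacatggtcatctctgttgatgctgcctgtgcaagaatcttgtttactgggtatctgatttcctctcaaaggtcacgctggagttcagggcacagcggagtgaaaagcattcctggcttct

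The windows that carried peaks on both days were the richer in CpG. Letmd1 had 48 CpG pairs and 79.0% G and C, and Osbpl11 had 18 CpG pairs and 61.0% G and C. Hacd4 had 9 CpG pairs and 58.7% G and C, and the outer and inner windows of Ankrd23 had 7 and 3 CpG pairs with 51.7% and 57.3%. Over all windows the medians were 7 CpG pairs and 52.7%.

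Of 16 motifs searched on both strands, the GC box lay in 4 of the 5 windows and in 35.7% of all windows, with 3 copies each in Letmd1 and Hacd4. The CCAAT box lay in Letmd1 and Osbpl11 and in 37.4% of all windows. Letmd1 also held an ETS motif (CCGGAAG, in 8.86% of all windows), Osbpl11 a YY1 motif (AAGATGGC, 2.75%) and the inner window of Ankrd23 a STAT motif (TTCNNNGAA, 8.30%). A C/EBP motif (TTNCNNAA, 40.7%) lay in Hacd4, Letmd1 and Osbpl11. None of the 5 windows held the letters searched for CRE (TGACGTCA, in 1.79% of all windows), AP-1 (TGANTCA, 7.81%), RUNX (TGTGGT, 16.8%), EBF (in 0.904%) or NRF1 (in 4.6%). The same was true of the NFI full site (0.0365%), ZBTB33 (0.466%), the glucocorticoid response element (0.475%), the PPAR-RXR repeat (0.381%) and the MAF recognition half-site (0.423%), which contains the AP-1 letters. The members' day 1 gene-end peaks lay outside all 5 windows, and the sequence of those peaks was not used here.

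Bcl2l10, the BCL-2 family gene, spans chromosome 9 from 75347758 to 75351640, and its day 1 peak was the strongest of the 7 by mean height. It lay inside the gene, shared from 75348719 to 75348912. Heights were 5.49, 4.10 and 2.46 fragments per 1000000 in day 1 replicates 1, 2 and 3, with no day 0 peak, and fold enrichment was 11.8 ± 2.05 at day 1 (SD, n = 3). By −log10 q the peak ranked within the strongest 6.72% to 16.2% of each day 1 list. Its distance to the lower end was 839, 861 and 961 bp, the closest to the 1 kb limit of the 7 genes, and its summits lay 1035 to 1062 bp from the end. The nearest day 0 peaks were 6196, 10275 and 29221 bp from the gene in replicates 1, 2 and 3. Counted by summit, or with gene ends of 0.5 kb, Bcl2l10 had no gene-end peak on either day.

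The surroundings of Bcl2l10 held regions of both days. A region 4.99 kb away, inside the neighbouring gene Gnb5 from 75342457 to 75342772, had fold enrichments of 12.1, 10.1 and 7.39 in day 1 libraries and no day 0 peak. A region 10.3 kb beyond the other end, from 75361915 to 75362575, had 9.47, 11 and 7.67 in day 1 libraries and 5.13 in day 0 replicate 2 alone. The other way round, a region 29.2 kb away inside Gnb5, from 75318364 to 75318542, had no day 1 peak and fold enrichments of 7.67, 5.17 and 6.33 in day 0 libraries. A region 6.2 kb away in Gnb5 was called in day 0 replicate 1 alone.

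Ankrd23, the muscle ankyrin repeat gene, spans chromosome 1 from 36530193 to 36536556 on the minus strand. Its day 1 peak lay inside the gene near the 5′ end, shared from 36536132 to 36536264, between the 2 promoter windows that RefSeq lists and overlapping neither. Heights were 3.66, 1.96 and 1.92 fragments per 1000000 in day 1 replicates 1, 2 and 3, with no day 0 peak, and fold enrichment was 7.84 ± 1.31 at day 1 (SD, n = 3). The nearest day 0 peak lay 10.3 kb away, at the far end of Ankrd39, the gene next to it. That region and the one at the near gene Cnnm3 were called in all 6 libraries, and Ankrd23 was the nearest coding gene of no distal region.

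Nfe2, the NF-E2 subunit gene, spans chromosome 15 from 103248212 to 103258403. Its day 1 peak lay across the higher end of the span, shared from 103258309 to 103258447. Heights were 2.44, 3.93 and 1.92 fragments per 1000000 in day 1 replicates 1, 2 and 3, with no day 0 peak, and fold enrichment was 8.36 ± 1.26 at day 1 (SD, n = 3). Day 1 replicate 2 also had a weaker peak of 5.43-fold at the lower end, from 103248632 to 103249200. Inside the gene, 2.01 kb from the lower end, a region from 103250226 to 103250485 was called in no day 1 library and with fold enrichments of 4.14, 5.16 and 4.20 in day 0 libraries. The regions at the neighbours Hnrnpa1 and Copz1 were called in all 6 libraries.

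Nfe2 and Ankrd23 are best known from blood and muscle cells. Of 10 erythroid and megakaryocyte markers, gene-end peaks lay at 1, 1 and 0 in the 3 day 1 lists and at 3, 3 and 1 in the 3 day 0 lists, and Gata1, both globin genes of the list, Alas2, Itga2b, Gp1ba and Pf4 had none. Of 10 striated muscle markers, the counts were 1, 1 and 1 at day 1, each time Ankrd2, which is also a relative of Ankrd23, and 3, 2 and 1 at day 0, with Myog, Actn2, Ttn, Myh1, Tnnt3 and Des at none. Immune markers had 0, 0 and 0 of 6 at day 1 and 2, 1 and 2 at day 0, and endothelial markers 0, 1 and 0 of 5 and 1, 1 and 1. None of these lists had more gene-end peaks at day 1. The same held for all coding genes, of which 39.7%, 42.9% and 32.5% had one in day 1 replicates 1, 2 and 3, against 51.6%, 47.8% and 45.5% in day 0 replicates. The part of other cell types in the members' peaks was not tested.

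**Figure D3:**
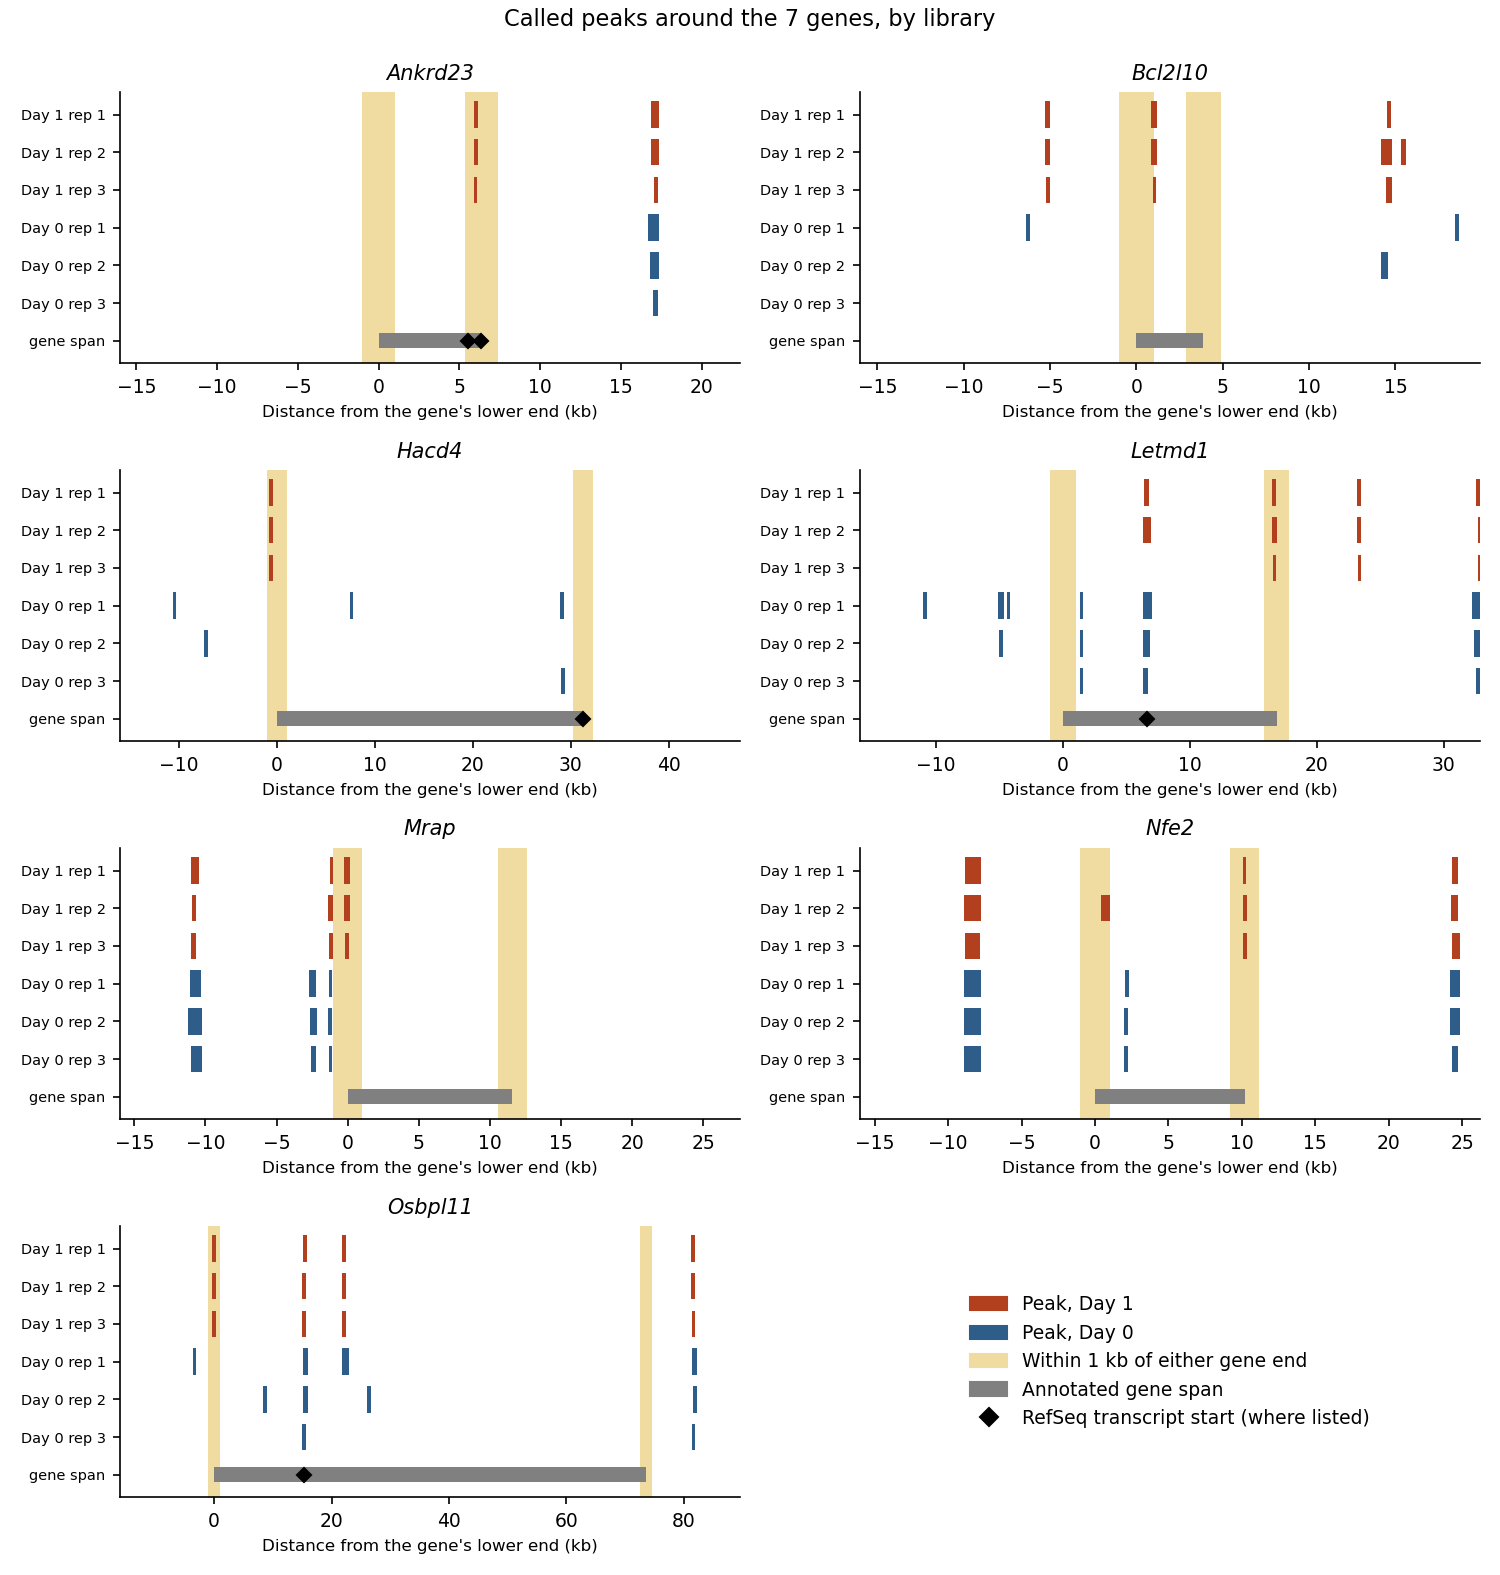
Called peaks around each gene, with distance from the lower end of the gene span in kb on the horizontal axis and 1 row per library, day 1 above day 0. Shading marks the 1 kb on either side of each gene end, the grey bar the gene span and diamonds the RefSeq transcript starts, and the narrowest peaks are drawn wider than scale so that they can be seen. Day 1 peaks alone fall in the shading, while at Letmd1 and Osbpl11 peaks of both days stand over the transcript start.

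The strand was known for 4 genes. The day 1 gene-end peak lay at the 5′ end of Ankrd23 and Osbpl11 and at the 3′ end of Hacd4 and Letmd1. The nearest coding neighbours on either side, and Focad, made 15 genes. Of these, 12 had a gene-end peak in all 6 libraries, Slc11a2 in 2 day 1 and 3 day 0 libraries, and Gnb5 and Ifnb1 in none. Over all coding genes, 30.1% had one in all 6 libraries and 46.0% in none.

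The 7 genes were nearest to 26 distal regions, of which 0 were called in all day 1 and no day 0 libraries, against 0.709% of the 46127 distal regions of all coding genes, a share at which 26 regions would be expected to hold less than 1. The mirror pattern held for 7 of the 26, 26.9%, against 19.6% of all distal regions. Taken regardless of which gene was nearest, 43 regions lay within 30 kb of a member and outside its gene ends. Of these, 2 were day 1 only, those inside Gnb5 and Csrnp2, and 5 were day 0 only, where 0.607% and 17.5% of all 68913 regions had these patterns. No test was made over so few regions around genes that were chosen.

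Day 1 replicates 1, 2 and 3 had 6, 7 and 4 distal peaks of the 7 genes, and day 0 replicates had 21, 16 and 12. The highest day 1 library lay below the lowest of day 0, and the same held for the totals over all coding genes, at 10225, 12291 and 5359 against 35905, 26002 and 24140. Per 10000 distal peaks, members had 5.87, 5.70 and 7.46 in day 1 libraries and 5.85, 6.15 and 4.97 in day 0 libraries, and these overlapped. In the lists cut to 12556 peaks the means of the members' distal peaks turned round to 4.67 at day 1 and 3.00 at day 0.

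**Figure D4:**
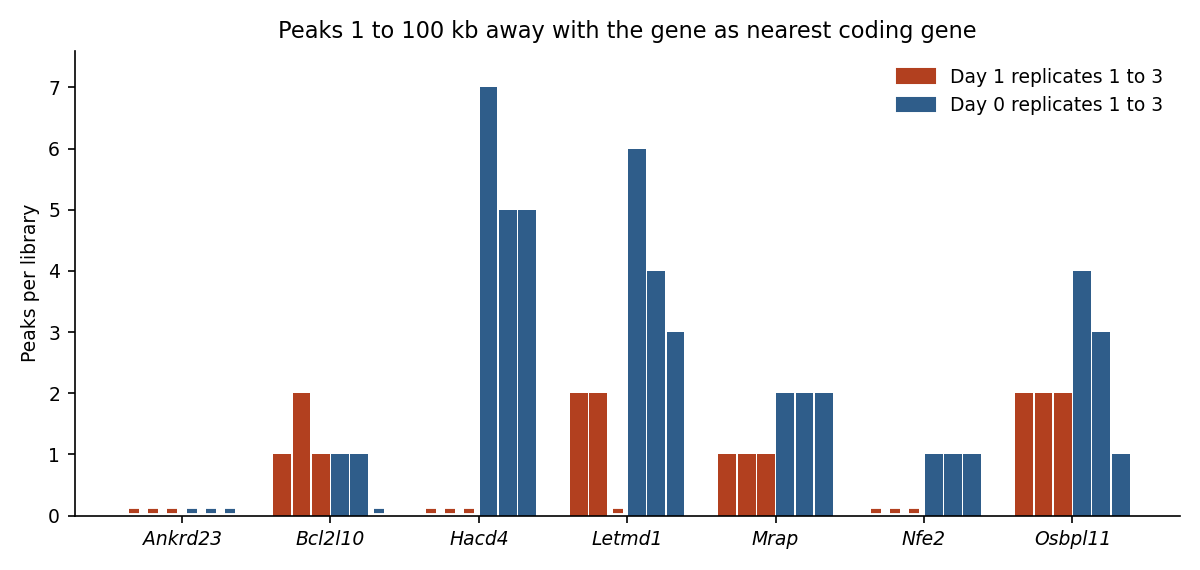
The number of peaks per library that lay more than 1 kb and at most 100 kb from the named gene and had it as nearest coding gene, with the 3 day 1 libraries at the left and the 3 day 0 libraries at the right of each gene. Short dashes mark counts of 0. Hacd4 had 0 in every day 1 library against 7, 5 and 5 in the day 0 libraries.

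The 64 genes of 7 related lists, from the BCL-2 family to the oxysterol-binding proteins, included 0 with gene-end peaks in all day 1 and no day 0 lists and 3 with the mirror pattern, Mc1r, Maff and Mafg. Over all coding genes these patterns had shares of 0.0457% and 2.43%, so counts this small are near the background and say nothing particular about the relatives. Of the 64, the number with such a peak was 30, 38 and 27 in day 1 replicates 1, 2 and 3, against 46, 43 and 42 in day 0 replicates. The difference in means, day 1 minus day 0, was −12 genes (31.7 ± 5.69 and 43.7 ± 2.08, SD, n = 3 each, exact two-sided permutation p = 0.1, the smallest that 3 libraries against 3 can give). As shares of the 64, the day 1 numbers were 46.9%, 59.4% and 42.2% and the day 0 numbers 71.9%, 67.2% and 65.6%. The share of all coding genes was also lower at day 1, at 39.7%, 42.9% and 32.5% against 51.6%, 47.8% and 45.5% at day 0. The gap between the days was wider among the relatives, which was not tested. In lists of equal length the relatives' difference turned to 3.67 genes, with means of 25 for day 1 and 21.3 for day 0. Its exact permutation p was 0.1 with 3 libraries a day.

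By family, the small MAF partners of the NF-E2 subunit differed among themselves. Mafk had gene-end peaks in all 6 libraries, while Maff and Mafg had them in 0 day 1 and 3 day 0 libraries, and Keap1, which holds back the relative NRF2, in 0 and 2. The relatives Nfe2l1 and Nfe2l2 were called in all 6. Of the melanocortin genes, Mc1r, a receptor for melanocyte-stimulating hormone, was called in 0 day 1 and 3 day 0 libraries, while Pomc, the gene of the hormone precursor, was called in 2 day 1 and 0 day 0 libraries. Mc2r, the receptor that MRAP carries, and Mrap2 had no gene-end peak in any list.

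Of all coding genes, 6580 of 21883 were called in all 6 libraries, and of the fatty acid elongation genes 5 of 12, among them Hacd1, Hacd2 and Tecr. The elongase genes Elovl1, Elovl4 and Elovl6 were called in 1, 0 and 0 day 1 and in 3, 2 and 2 day 0 libraries. In the BCL-2 family, Bax and Bak1, which open the outer mitochondrial membrane in apoptosis, were each called in 1 day 1 and 3 day 0 libraries, and Bbc3, their activator PUMA, in 0 and 2. Of 11 oxysterol-binding protein genes, 6 were called in all 6 libraries, Osbpl5 in 1 day 1 and 3 day 0, and Osbpl2 in 0 and 2. Letm1 and Letm2 were called in all 6, and Ankrd1, the relative of Ankrd23, in 1 day 1 and 3 day 0 libraries. Of these 14 relatives whose calls differed by at least 2 libraries, Pomc alone had more at day 1. Over all coding genes, 52 differed by as much with more at day 1 and 1828 with more at day 0, so this balance was near that of all genes.

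Besides the 7 members, 3 genes had the same call pattern in the 6 libraries. Zbtb16, which encodes the transcription factor PLZF, had gene-end peaks with fold enrichments of 6.55, 10.9 and 8.47 in day 1 replicates 1, 2 and 3. Mrpl18, a mitochondrial ribosomal protein gene, had 4.87, 13.2 and 13.8, with its lowest value in the library where most members had their highest. Cidec, which encodes a lipid droplet protein of fat cells, had 6.38, 6.46 and 5.46. Ordered by the lowest −log10 q over the day 1 libraries, the 10 genes ran from Bcl2l10 at 14.3 through Nfe2 at 8.78, Zbtb16 at 7.64, Ankrd23 at 6.95, Hacd4 at 6.70, Letmd1 at 6.18, Mrpl18 at 5.07, Cidec at 4.61 and Mrap at 4.34 to Osbpl11 at 2.35.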

How the data were processed

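ATAC-seq peak lists of 6 libraries, 3 per day, were used. Peaks were called per library with MACS2 2.2.7.1 on paired-end fragments without a control, at a q cutoff of 0.05 and against a local background over 10000 bp, per the file headers. MACS2 does not apply shift and extension settings in this mode, so pileup counts whole fragments and not transposase cut sites. Input alignments were named as filtered and free of duplicates in the same headers. The submitters' processing notes name mm10. The deposited pileup is the signal at the summit in whole fragments, unscaled. The deposited −log10 p and −log10 q values and the fold enrichment are the authors' own per peak and were used to rank and describe peaks. The fold enrichment is a ratio of pileup to local background with a fragment added to each. Read counts per region were not used here.

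Autosomal (1 to 19), X and Y peaks were compared with coding gene spans of GRCm38.p6, the assembly mm10 names, and merged into regions where they overlapped by 1 bp or more. RefSeq promoter windows were called where a peak overlapped them. All 6 libraries entered each comparison. Counts per library were compared by exact permutation, which 3 against 3 cannot take below 0.1. Alternatives were gene ends of 0.5 and 2 kb, summits only, −log10 q of at least 5, lists cut to 12556 peaks, distal peaks within 50 kb and each library left out. Members, gene lists and motifs were chosen with earlier results of these data known, and named relatives are those differing by at least 2 libraries between days. The other named genes are neighbours and genes of the same pattern. The promoter windows and the 30 kb surroundings were added after the data had been seen, as were the further relatives and markers named for context. The scripts ran in Python 3.11.15 with pandas 2.3.3 and were tested on simulated data with planted gene-end peaks.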

Additional observations from a re-analysis of the deposited data

How the results depend on the processing

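With lists cut to 12556 peaks, 4 of the 7 members kept the pattern, Bcl2l10, Hacd4, Nfe2 and Osbpl11. The other 3 had the peak in 2 of 3 day 1 lists. Cutting could only remove peaks, so no member could gain a day 0 peak, and day 1 replicate 3 lost none. Osbpl11 stayed narrowly, at rank 12482 in day 1 replicate 2. In the cut lists 404 coding genes had the pattern and 60 its mirror, against 10 and 531 in deposited lists. The relatives' difference in the cut lists was 3.67 genes and that of distal peaks 1.67, both reversed from −12 and −10.7. Gene ends of 2 kb gave 5 members and 16 genes of the pattern, while gene ends of 0.5 kb and summits alone gave 6 members each and a −log10 q of at least 5 gave 5. Leaving out a library could not remove a member, because the rule still holds in the lists that remain. For the same reason both gene counts could only stay or rise. They were 12 to 33 for the pattern and 566 to 1051 for its mirror. The highest were 33 without day 1 replicate 3, 1051 without day 1 replicate 2 and 865 without day 0 replicate 3. The labels do not say whether same-numbered libraries were paired. Deviations of same-numbered libraries correlated at 0.021, −0.009 and 0.089, and those of differently numbered libraries at −0.127 to 0.109. With 3 libraries a day, these values cannot decide whether the libraries were paired. With libraries blocked by replicate number the relatives' difference stayed at −12 (exact sign-flip p = 0.25, the smallest that 3 pairs can give). Leave-one-out gave differences of −15.2 to −9.67. The cause of each change was not tested. Peak lists give no level where no peak was called.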
